A study of Homo sapiens with 6 samples.

Results

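The RNA-seq libraries of SKBR3 cells were assembled into 264911 transcripts, and 48395 of these were unannotated spliced isoforms of known genes: they share at least 1 splice junction with an annotated transcript but match none in full, which the assembler marks with class code j. The isoforms described here are the 701 of these 48395, or 1.45%, that carried a single gene name and a mean estimated count of 500 or more over the 6 libraries. They were thus chosen by their measured level, so their high mean over the libraries is a description and no result. Only differences between the groups were tested. No isoform was removed for having several gene names. SKBR3 is a human breast adenocarcinoma line of epithelial origin that carries an amplified ERBB2 (HER2) gene. One group of 3 libraries came from cells with the empty pLVX lentiviral vector (control), the other group of 3 from cells with pLVX-CTTN, which expresses cortactin, an actin-binding protein of the cell cortex. Both were stable lines of infected, puromycin-selected cells, each derived from the same cell line. The sources do not say whether they were pools or clones, or whether the libraries of a group came from separate cultures, so p-values measure the spread between these libraries, which may be technical. The protocol speaks of tumors beside the stable lines while the methods name cells, and which of them the RNA came from was not tested.

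A primary transcript becomes mRNA when the spliceosome removes its introns, and alternative choices of splice sites, exons or retained introns give several isoforms from 1 gene. Isoforms can differ in the protein they encode, in their stability or in their untranslated ends, and transcripts with a premature stop codon are degraded by nonsense-mediated decay. Short-read libraries sample fragments of a transcript, so the count of an isoform is an estimate: fragments that fit several isoforms of a gene are split among them by a likelihood model. Cancer cells often carry isoforms that reference annotations lack. The deposited tables give the name, length and locus of each isoform but no exon coordinates, so no junction sequence is shown.

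Sequencing depth was even, between 34887078 and 41279832 fragments assigned to genes per library, and the values were scaled by library. CTTN, the gene carried by the vector, had counts of 29088, 37144 and 18999 in CTTN 1 to 3 and 10912, 11228 and 11265 in controls 1 to 3, a log2 difference of 1.30 ± 0.22 (SE, limma adjusted p = 0.028). The call was lost without CTTN 1 (1.25, limma adjusted p = 0.152) and without each control (1.28 to 1.31, limma adjusted p of 0.136 to 0.15). Most of the count was the annotated transcript ENST00000301843, at 27087, 33974 and 17084 against 7322, 7712 and 7546. The only unannotated CTTN isoform near the limit, TCONS_00037444, had a mean of 427 and was not among those described, with 304, 502 and 247 in CTTN 1 to 3 and 526, 458 and 523 in controls 1 to 3. CTTN 1 and CTTN 3 stood apart from the other libraries. Isoforms of 5000 nt or more held 14% and 9.94% of their counts, against 19.3% in CTTN 2 and 18.3% to 19.8% in the controls, and isoforms under 1000 nt held 15% and 19.2% against 12.2% and 11.9% to 12.9%. Counts of calls are therefore also given without CTTN 2, and most of them without CTTN 1 and CTTN 3, below or in the closing section. The marker genes ERBB2, KRT8, KRT18, KRT19 and EPCAM were highly expressed in every library, while CDH1 (E-cadherin) was at 6.11 to 16.6 counts. Summed over each marker list, the 6 epithelial genes ranged from 576989 to 672729 in CTTN and 577337 to 601691 in control, the 5 stromal genes from 464 to 560 and 557 to 606, the 4 leukocyte genes from 88.9 to 127 and 55.9 to 65.0, and the 3 endothelial genes from 188 to 301 and 600.5 to 674. Of the 18 genes 11 reached the minimum mean of 10 and were tested, and of these 11 CDH5 (VE-cadherin) alone passed, with 194, 262 and 162 counts in CTTN 1 to 3 against 561, 614 and 560.4 in controls 1 to 3 (log2 difference −1.51 ± 0.18, limma adjusted p = 0.00837), a call lost without CTTN 1 (−1.49) and without each control (−1.54 to −1.47). Over all 14331 genes tested 4.23% passed. In bulk RNA fewer cells of a type and less RNA per cell cannot be told apart, and the part of the marker genes in the results was not tested. Nearly all of the stromal sum was COL1A1, at 462 to 603 counts, while COL1A2, COL3A1, LUM and DCN were at 0 to 2.87.

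The 701 isoforms lay in 618 genes. Of these genes 545 had 1 such isoform, 64 had 2, 8 had 3 and 1 had 4. By symbol, 679 of the isoforms belonged to protein-coding genes in RefSeq, 6 to long non-coding RNA genes, and 16 had no match. For 112 of them the assembled locus also held other gene names, so that their share mixes genes. These and the 21 isoforms on chromosome 8, 129 in all, were counted but are not named. Their median length was 4052 nt, with quartiles of 2714 and 5831 nt. The 10636 annotated isoforms at the same level had a median of 2944 nt and quartiles of 1798 and 4615 nt. Most of the unannotated isoforms were shorter than the annotated transcript they most resembled: 465 were shorter, 235 longer and 1 equal, with a median difference of −190 nt. The difference exceeded 1000 nt in 157 of the shorter and 92 of the longer ones, and was at most 100 nt in 97. They seldom came from a start site of their own: 684 shared a start site group with an annotated isoform, and 17 did not. The nearest annotated transcript had the lower mean count in 424 of 701 cases, and its mean was under 10 in 150.

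The longest named isoform, of LPP, which encodes a focal adhesion protein, measured 17700 nt against 18277 nt for its nearest annotated transcript. That of MACF1, a giant protein linking actin and microtubules, was 6389 nt against 24828 nt, the largest shortening among the named isoforms, and that of HNRNPU, an RNA-binding protein of the nuclear matrix, was 14989 nt against 7551 nt, the largest extension. The shortest named isoform, 808 nt, was one of BUD31, a spliceosome component, whose nearest annotated transcript has 1139 nt.

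The isoform with the highest estimated count was one of FASN, fatty acid synthase, in the assembled locus GRCh38 chr17:82078333-82098332. Its 8390 nt are close to the 8565 nt of the nearest annotated transcript, and it had 64599, 59575 and 44221 in CTTN 1 to 3 and 79812, 75185 and 79572 in controls 1 to 3. Each CTTN library lay below each control, with means of 56132 ± 10616 and 78190.0 ± 2605 (SD, n = 3), but the log2 difference of −0.50 ± 0.15 (SE) did not pass the test (limma adjusted p = 0.548). It held 50.7% of the FASN count on average, with shares of 58.5%, 41.5% and 52.2% in CTTN 1 to 3 and 53.2%, 51.2% and 47.9% in controls 1 to 3. The share overlapped between the groups. Counts grow with transcript length, so they order isoforms by reads and not by molecules.

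Ribosomal protein gene RPS4X (GRCh38 chrX:72181353-72307187) contributed an isoform of 1304 nt with 35862, 27747 and 47562 in CTTN 1 to 3 and 32437, 26962 and 26567 in controls 1 to 3, highest in CTTN 3. PFN1, which encodes the actin-monomer binding protein profilin 1 (GRCh38 chr17:4945652-4957131), had an isoform of 950 nt with 27866, 21431 and 39321 in CTTN 1 to 3 and 24947, 22686 and 23940.3 in controls 1 to 3. The groups overlapped for both. The PFN1 isoform was most of its gene: 95.1%, 94% and 96.3% in CTTN 1 to 3 and 95%, 94.4% and 94.6% in controls 1 to 3. SET, a chaperone of histones and an inhibitor of protein phosphatase 2A, had 15501, 14059 and 16907 in CTTN 1 to 3 and 11769, 12103 and 11787 in controls 1 to 3. Each CTTN library was above each control for SET, with a log2 difference of 0.38 ± 0.09 that missed the threshold (limma adjusted p = 0.524).

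The heat shock protein gene HSP90AA1 gave the widest spread among these 12, with 15558, 428 and 44718 in CTTN 1 to 3 and 3412, 863 and 1174 in controls 1 to 3. CTTN 3 was over 100 times CTTN 2, so the spread within the CTTN group exceeded the distance to the controls. An isoform of the vitamin transporter gene SLC5A6 was far steadier, with 12198, 9113 and 11672 in CTTN 1 to 3 and 11701, 9352 and 10734 in controls 1 to 3. So was one of PSAP, which encodes the precursor of the lysosomal saposins, with 10309.7, 10065 and 8760.0 in CTTN 1 to 3 and 9207, 9778 and 9355 in controls 1 to 3. TXNRD1, thioredoxin reductase 1, had 11866, 7131 and 14250.2 in CTTN 1 to 3 and 8019, 7958 and 8117 in controls 1 to 3, where CTTN 1 and CTTN 3 lay above the other 4 libraries.

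CDK12, a kinase of RNA polymerase II that lies beside ERBB2 on chromosome 17 (GRCh38 chr17:39461511-39564907), had an isoform of 8861 nt with 4031, 12825 and 553 in CTTN 1 to 3 and 9277, 12021 and 14539 in controls 1 to 3. CTTN 1 and CTTN 3 were the lowest 2 libraries. The peroxiredoxin gene PRDX1 had 8942, 7822 and 12235 in CTTN 1 to 3 and 8584, 7373 and 7567 in controls 1 to 3. STT3B, a catalytic subunit of oligosaccharyltransferase, had 9151, 6919.8 and 10743 in CTTN 1 to 3 and 8143, 7432 and 8135 in controls 1 to 3. The last of the 12 was CFL1, the actin-severing protein cofilin 1, with 7465, 5946 and 12867 in CTTN 1 to 3 and 8884, 5944 and 6943 in controls 1 to 3. The groups overlapped for all 4. Per length the order was another: mean FPKM was 1078 for PFN1, 694 for RPS4X, 235 for PRDX1 and 231 for FASN, the 4 highest of the named isoforms. HSP90AA1, RPS4X, PFN1, SET, PRDX1 and CFL1, like KRT8, KRT19, RPS7 and HNRNPA1 named further on, have processed copies elsewhere in the genome, and how reads shared with these were assigned was not given, so their levels are uncertain.

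**Figure D1:**
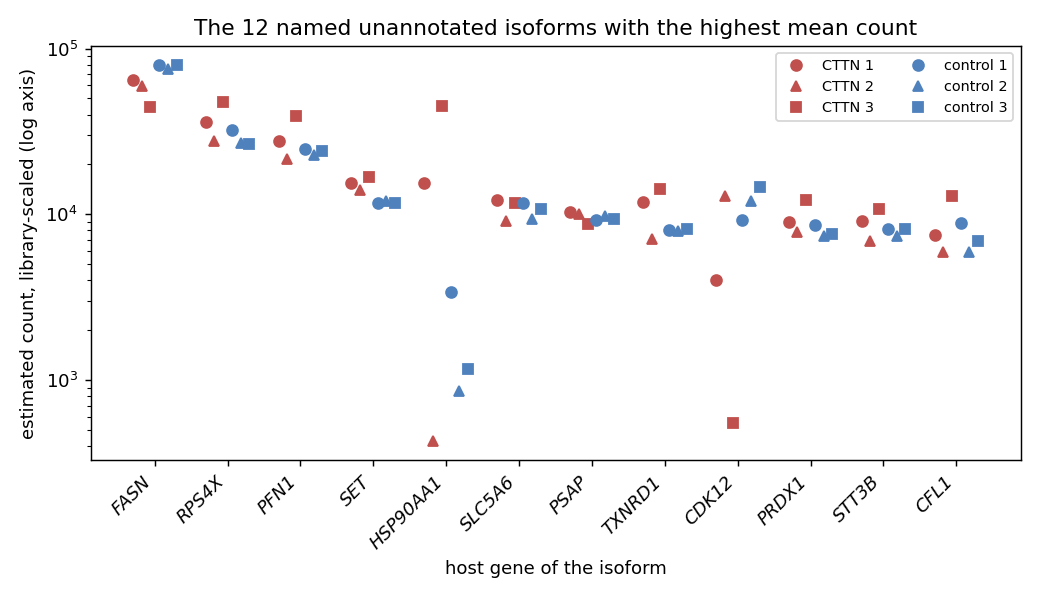
Library-scaled estimated count (log axis) of the 12 named unannotated isoforms with the highest means, by host gene; red points are the 3 CTTN libraries, blue points the 3 control libraries, and the shape gives the library number. The HSP90AA1 and CDK12 isoforms spread widely within the CTTN group, while those of PSAP and SLC5A6 are close together in all 6 libraries.

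The level fell off steeply: 300 isoforms reached a mean of 1000 and 27 reached 5000, and the median was 899. The 3 named isoforms just inside had means of 501 (ZCCHC2, 4695 nt), 502 (SACM1L, 2666 nt) and 502 (PSME4, 4501 nt). The 3 just outside had means of 498 (TEAD3, 2488 nt), 499 (TNPO2, 4184 nt) and 499 (ERI3, 1382 nt). PSME4, a proteasome activator, had 1019, 74.7 and 991 in CTTN 1 to 3 and 516, 149 and 261 in controls 1 to 3, and the nuclear import receptor TNPO2 had 729, under 1 and 1726 in CTTN 1 to 3 and 346, 137 and 54.2 in controls 1 to 3. CTTN 1 and CTTN 3 were the highest libraries for both.

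As a share of all isoforms of the gene, the unannotated isoforms ranged from 0.426% to 96.6%, with a median of 22.9% and quartiles of 12% and 37%. They were the most abundant isoform of their gene in 172 cases and held over 50% of its count in 86, or 12.3%. Among the annotated isoforms at the same level 54.4% held over 50%. The highest share was that of LPIN2, a phosphatidate phosphatase of lipid synthesis, with 93%, 93.8% and 100% in CTTN 1 to 3 and 100%, 95.5% and 97.4% in controls 1 to 3. Its nearest annotated transcript, longer by 1 nt, had a mean of 41.3 counts. PFN1 came next with 94.9%, as described above. COL9A2, a collagen IX chain, had a mean share of 92.9% with an isoform of 1730 nt against 2862 nt. GSN, gelsolin, followed with 89.9%, CDC123, a chaperone of translation initiation factor eIF2, with 89.6%, ARHGEF7, an exchange factor for Rac, with 89.6%, and NOMO1, a protein of the endoplasmic reticulum with near-identical copies on the same chromosome, with 89.3%. In these genes the annotated transcripts together were the minor part of the estimate.

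Levels of the unannotated isoforms varied more between libraries than those of annotated isoforms. The ratio of the highest to the lowest of the 6 libraries, after adding 1 count, had a median of 3.23, against 1.75 for the 10636 annotated isoforms at 500 or more. It was under 2 for 212 isoforms (30.2%, against 61.2%), over 10 for 184 (26.2% against 7.05%) and over 100 for 101 (14.4% against 3.35%). These are descriptions of 2 sets that differ in length and in level. The host genes were steady by the same measure: the median ratio of the gene count was 1.45 over all 701 isoforms and 1.47 over the 184 with a ratio over 10, of which 141 had a gene ratio under 2. In 170 of those 184, CTTN 3 was the highest or the lowest library.

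**Figure D2:**
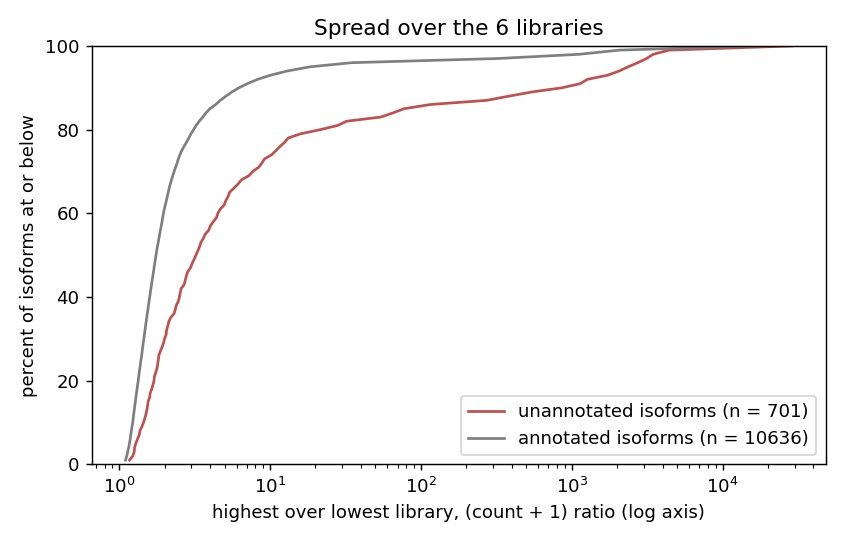
Percent of isoforms (y axis) whose ratio of the highest to the lowest of the 6 libraries, computed on count + 1, is at or below the value on the x axis (log axis), for the 701 unannotated and the 10636 annotated isoforms with a mean of 500 or more. The curve of the unannotated isoforms lies to the right, with a median of 3.23 against 1.75.

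Some isoforms were close to equal in all 6 libraries. The steadiest named one, of GORASP2, a Golgi stacking protein, had 3328, 3173 and 3405 in CTTN 1 to 3 and 3411, 3339 and 3262 in controls 1 to 3, a ratio of 1.08, and held 85.4% of its gene. HNRNPA2B1, an RNA-binding splicing regulator, had 3044, 2974 and 3245 in CTTN 1 to 3 and 2994, 3318 and 3088 in controls 1 to 3. EFCAB14 had 1779, 1992 and 1861 in CTTN 1 to 3 and 1872, 1960.3 and 1923 in controls 1 to 3, PODXL, the cell surface sialomucin podocalyxin, had 1135, 1223 and 1207 in CTTN 1 to 3 and 1298, 1205 and 1251 in controls 1 to 3, and PITPNA, a phosphatidylinositol transfer protein, had 2830.1, 2820.3 and 2655 in CTTN 1 to 3 and 2762, 2438 and 2718 in controls 1 to 3. Their log2 differences between the groups lay between −0.07 and 0.07, with standard errors of 0.09 to 0.11. Their lengths ranged from 2392 to 5575 nt. These 5 and the isoforms with the highest shares were picked after their values were seen.

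To ask whether cortactin overexpression shifted these isoforms, their level was compared between CTTN and control. None of the 701 passed (limma, adjusted p under 0.05 over 61322 isoforms, lowest adjusted p 0.163), nor did any other isoform (0% called). At an unadjusted p under 0.05 there were 62 (8.84%), against 4860 (7.93%) of all isoforms tested. The median log2 difference was 0.05 against −0.05 over all isoforms, with 365 of the unannotated isoforms above 0 and 336 below. The precision was low: the median standard error was 0.41, and the 95% interval of the difference lay within a 1.5-fold change either way for 74 of 701 and within 2-fold for 222. Groups that did not overlap were found for 47 isoforms higher in CTTN (6.7%, against 8.94% of all isoforms) and 64 lower (9.13%, against 9.99%), so these counts were no larger than the background.

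In share of the gene none of the 701 passed (limma over 58213 isoforms, lowest adjusted p 0.229), where 6 of all isoforms did (0.0103% called). At an unadjusted p under 0.05 there were 22 (3.14%), against 4.81% of all. Shares did not overlap between the groups for 32 isoforms higher in CTTN (4.56%, background 5.59%) and 46 lower (6.56%, background 8.18%). One of the latter was BAG6, a chaperone of membrane and misfolded proteins, whose isoform had 7.48%, 7.05% and 3.95% in CTTN 1 to 3 and 15.3%, 13.5% and 11.9% in controls 1 to 3, and counts of 387, 422 and 183 in CTTN 1 to 3 and 849, 747 and 694 in controls 1 to 3. All 3 CTTN shares were below all controls while the BAG6 gene count was not called (log2 difference −0.11 ± 0.11, limma adjusted p = 0.479), but the share itself missed the threshold (limma adjusted p = 0.711). The BAG6 isoform had a CTTN mean under 500 and reached the limit through the controls, so the choice favoured its difference. MAP3K2, a kinase of the MAP kinase cascade, had the lowest p of the named isoforms, with 93.9%, 88.3% and 37.4% in CTTN 1 to 3 and 100%, 100% and 99.9% in controls 1 to 3, where CTTN 3 was far below the others (limma adjusted p = 0.229). Summed by start site, 0% of 36603 groups were called, and at an unadjusted p under 0.05 the 668 groups that hold these isoforms gave 86 (12.9%, against 11.1% of all).

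Unannotated spliced isoforms of any level held 5.55%, 5.06% and 6.59% of the isoform counts in CTTN 1 to 3 and 5.31%, 5.09% and 5.21% in controls 1 to 3, and the 701 described here held 3.36%, 2.94% and 3.78% against 3.18%, 3.04% and 3.06%. The means of 5.73% ± 0.78 and 5.21% ± 0.11 (SD, n = 3) differed by less than the spread within CTTN (exact permutation test, two-sided, p = 0.4, where 0.1 is the smallest p that 3 against 3 can give). CTTN 3 was the highest library and CTTN 2 the lowest.

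The level of these isoforms followed their length in CTTN 1 and CTTN 3. In the shortest length group, 786 to 2714 nt, the median log2 level relative to the control mean was 0.39 in CTTN 1 and 0.83 in CTTN 3, but −0.10 in CTTN 2. In the longest length group, above 5831 nt, it was −0.29, −0.82 and −0.10 in that order. The controls stayed between −0.07 and 0.09 in each of the 4 groups. Annotated isoforms at 500 or more, in the same length ranges, went from 0.22 to −0.47 in CTTN 1 and from 0.42 to −1.11 in CTTN 3, and stayed between −0.02 and 0.00 in CTTN 2. CTTN 3 was the highest of the 6 libraries for 292 of the unannotated isoforms and the lowest for 262. For 279 isoforms CTTN 1 and CTTN 3 were both above all controls, and in 232 of these CTTN 2 was not. The median length of this set was 3089 nt. Both were below all controls for 205, with a median length of 5435 nt, and in 141 of these CTTN 2 was not. The part of this length shift in the comparison of the groups was not tested.

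**Figure D3:**
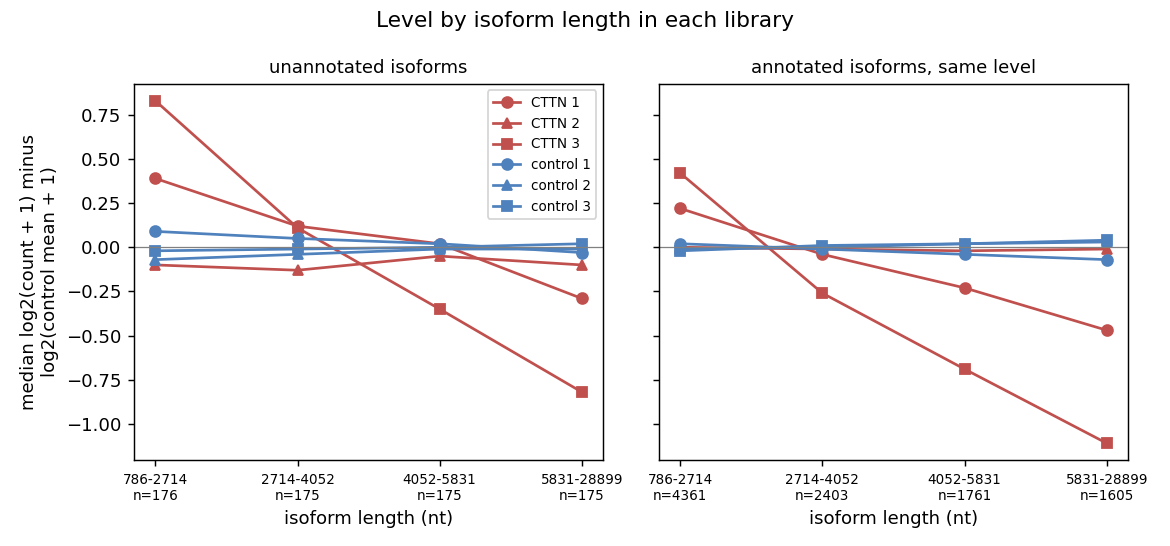
Median over isoforms of log2(count + 1) minus log2(control mean + 1) in 4 groups of isoform length, for the unannotated isoforms (left) and the annotated isoforms with a mean of 500 or more in the same length ranges (right); each line is a library. CTTN 3 and, less so, CTTN 1 run from above 0 in short isoforms to below 0 in long ones, whereas CTTN 2 and the controls stay near 0.

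With CTTN 2 left out, 2.02% of all isoforms and 32 of the 701 (4.56%) passed the level test, 18 higher and 14 lower, of median length 4217 and 6807 nt. The limit of 500 was set on the mean of all 6 libraries, so it favours isoforms that are high in 1 group: 14 of the 18 had a control mean under 500, 5 of these with all controls under 1, and 6 of the 14 had a CTTN mean under 500. The count is therefore no result about these isoforms. In share 2.24% of all isoforms and 15 of these isoforms (2.14%) passed. With only CTTN 2 against the controls, 0.75% of all isoforms and 9 of these (1.28%) passed in level, with the lone library assumed to vary like the controls. Leaving out any other single library gave 0 calls in level and in share among the 701. The 2 comparisons share the controls, and the second was added after the data were seen. Among the calls without CTTN 2 were isoforms of ERBB2, SF3B1, HNRNPU and CPT1A, whose values follow. The shorter of the called ERBB2 isoforms had all controls under 1 and reached the limit only through the CTTN libraries. The HNRNPU isoform had a CTTN mean under 500 and reached the limit through the controls. The choice favoured the calls of these ERBB2 and HNRNPU isoforms. The isoform of SCN8A was lower in both comparisons, with log2 differences of −2.47 without CTTN 2 and −2.03 with CTTN 2 alone. That of ASCC3, a helicase of the activating signal cointegrator complex, turned its direction, with 1.66 without CTTN 2 and −2.05 with CTTN 2 alone. Its counts were 1171, 97.6 and 1415 in CTTN 1 to 3 and 429, 382 and 415 in controls 1 to 3. The isoforms of SCN8A and ASCC3 each had 1 group mean under 500. They reached the limit through the other group, so their calls are favoured by the choice and no p is given. The 4389 nt isoform of SF3B1 and one of AFG3L2, a mitochondrial protease subunit, also passed in both, but they reached the limit only through the CTTN libraries, with all controls under 1, so that their calls are favoured by the choice and no p or fold is given. That of AFG3L2 was listed at under 1 in all controls and at 631, 22.7 and 2359.9 in CTTN 1 to 3.

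In several genes 2 unannotated isoforms changed in opposite directions between libraries, while the gene count varied less, apart from FASN as given below. KRT8, keratin 8 of simple epithelia (GRCh38 chr12:52897187-52952901), is an example. Its isoform of 1526 nt had 7812, under 1 and 29041 in CTTN 1 to 3 and 945, 62.7 and 126 in controls 1 to 3, and its isoform of 2041 nt had 1101, 6884 and 105 in CTTN 1 to 3 and 10909, 8579 and 10190.2 in controls 1 to 3. The shorter one was high where the longer one was low, in CTTN 1 and above all CTTN 3, and the KRT8 gene count was 141043, 119363 and 170301 in CTTN 1 to 3 and 146306, 143935 and 145941 in controls 1 to 3 (log2 difference −0.03 ± 0.13, limma adjusted p = 0.87). CTTN 2 was on the side of the controls.

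For FASN the shorter isoform, of 1939 nt, had 9055, 59.1 and 21841 in CTTN 1 to 3 and 4536, 529 and under 1 in controls 1 to 3, rising to 25.8% of the gene in CTTN 3. Control 1 was above CTTN 2, so the groups overlapped. The longer FASN isoform, described further above, had its lowest count in CTTN 3, but its share there lay within the controls. Its count was thus lower together with that of the gene. SLC38A1, a neutral amino acid transporter of the cell membrane, had an isoform of 7883 nt with 4337, 9802 and 992 in CTTN 1 to 3 and 9182, 10792 and 9675 in controls 1 to 3 and one of 7553 nt with 7596, 1166 and 9511 in CTTN 1 to 3 and 3069.9, 1778 and 2200.4 in controls 1 to 3. These 2 differ by 330 nt. In SF3B1, a core subunit of the U2 snRNP (GRCh38 chr2:197389784-197435091), the isoform of 4389 nt had 1192, 14.8 and 3952 in CTTN 1 to 3 and under 1, under 1 and under 1 in controls 1 to 3 and the one of 8365 nt had 594, 1282 and under 1 in CTTN 1 to 3 and 1126, 1211 and 1324 in controls 1 to 3. Again CTTN 3 was at opposite ends. CTTN 2 was within the controls for the longer isoform and above all controls for the shorter. ERBB2 (GRCh38 chr17:39671122-39730787), the amplified receptor tyrosine kinase gene of this line, had a pair of the same kind: the 4872 nt isoform had under 1, 3523 and under 1 in CTTN 1 to 3 and 3593, 2517 and 3945 in controls 1 to 3, and the 4044 nt isoform had 1495, under 1 and 5568 in CTTN 1 to 3 and under 1, under 1 and under 1 in controls 1 to 3. Each was at most 2.05% of the ERBB2 count in any library. These pairs were picked after their values were seen, and none of their differences in level or share passed the test with all 6 libraries.

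**Figure D4:**
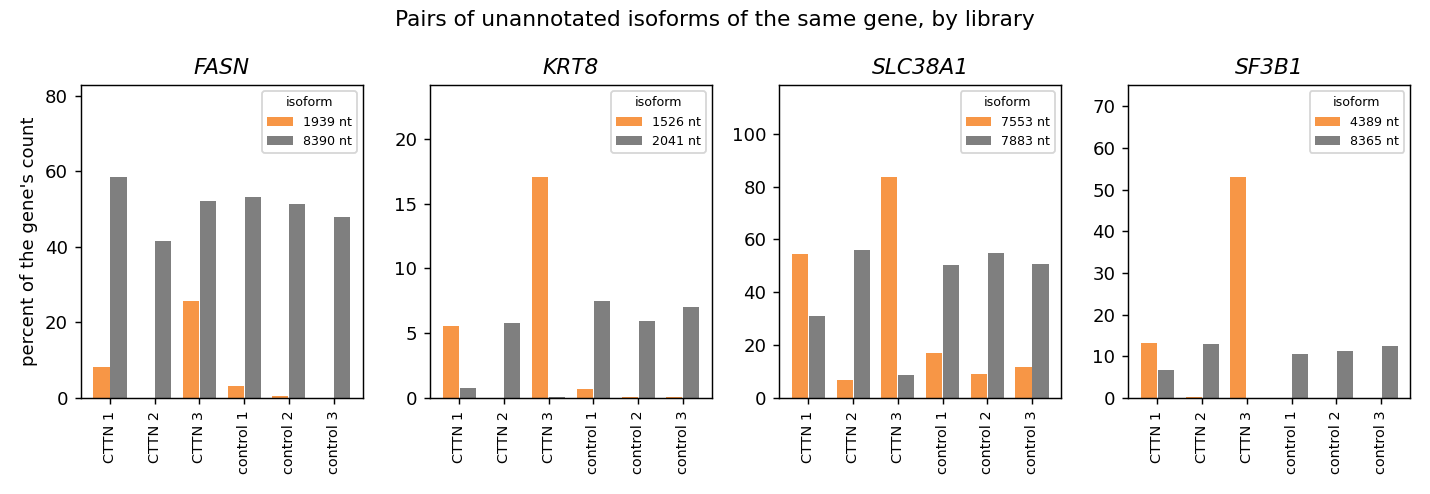
Percent of the gene's estimated count held by 2 unannotated isoforms of FASN, KRT8, SLC38A1 and SF3B1 in each of the 6 libraries; orange bars are the shorter and grey bars the longer isoform. The orange bars are highest in CTTN 3 in all 4 genes (25.8%, 17.1%, 83.6% and 53%), where the library is farthest from the controls.

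At the gene level 4.23% of 14331 genes were called, 325 higher and 281 lower in CTTN, and of the 618 host genes 11 were higher and 4 lower (2.43%). The isoforms were chosen by their mean over all libraries. The group labels did not enter this mean, but a limit on it favours isoforms that are high in 1 group. The host genes were also not matched in level to all genes tested. Their percentages beside those of all genes are therefore descriptions and no like comparison. With CTTN 1 or control 2 left out no host gene was called (0.133% and 0.105% of all genes were), 2 were called without control 1 (0.3% of all genes) and 2 without control 3 (0.167%). Without CTTN 3 there were 47 host genes, or 7.61%, against 8.18% of all genes, and without CTTN 2 there were 387, or 62.6%, against 48% of all genes. The host genes called with all 6 libraries held 17 of the isoforms.

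The largest of these differences was in SCN8A, the voltage-gated sodium channel subunit Nav1.6 (GRCh38 chr12:51590266-51812864). The gene had 496, 797 and 249 in CTTN 1 to 3 and 2554, 2779 and 2999 in controls 1 to 3, a log2 difference of −2.58 ± 0.37 (SE, limma adjusted p = 0.0166). The call was lost without CTTN 1 (−2.63) and without each control (−2.64 to −2.53). Almost all of it was unannotated: its isoform of 11384 nt had 377, 414 and 245 in CTTN 1 to 3 and 1632, 1709.7 and 1730.1 in controls 1 to 3, and a second one of 11787 nt had 110.1, 353 and under 1 in CTTN 1 to 3 and 902, 1046 and 1220.0 in controls 1 to 3. Both were below all controls in each CTTN library. Both had a CTTN mean under 500 and so reached the limit through the controls. The nearest annotated transcript, of 11556 nt, had a mean of under 1 count. In level the 11384 nt isoform differed by −2.32 ± 0.23, the lowest p of all 701, but missed the threshold over all isoforms (limma adjusted p = 0.163), and its share of 76.1%, 51.9% and 98.4% in CTTN 1 to 3 and 63.9%, 61.5% and 57.7% in controls 1 to 3 overlapped between the groups.

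Genes that were higher in CTTN included CILP2, a cartilage matrix protein gene, with 2100.2, 1952 and 2127 in CTTN 1 to 3 and 1066, 1014 and 1086 in controls 1 to 3 (log2 difference 0.96 ± 0.08, limma adjusted p = 0.00408). Its isoform had 699, 435 and 1247 in CTTN 1 to 3 and 215, 250.1 and 209.7 in controls 1 to 3, above all controls in each CTTN library. As a gene APLP1, a relative of the amyloid precursor protein, differed by 0.87 ± 0.10 (limma adjusted p = 0.0083), and its isoform, equal in length to its nearest annotated transcript at 2495 nt, had 692, 703 and 576 in CTTN 1 to 3 and 390.4, 389 and 363 in controls 1 to 3. PLEKHG6 differed by 0.56 ± 0.09 (limma adjusted p = 0.0196), and its isoform, 86% of the gene, had 1108, 948 and 1183 in CTTN 1 to 3 and 723, 687 and 754 in controls 1 to 3. GSN, the actin filament severing protein gelsolin, differed by 0.50 ± 0.09 (limma adjusted p = 0.0327), and its isoform had 2871, 2666 and 2873 in CTTN 1 to 3 and 2281, 1976 and 2099.8 in controls 1 to 3. PLOD1, a collagen lysyl hydroxylase, differed by 0.35 ± 0.07 (limma adjusted p = 0.0436), and its isoform, 17.3% of the gene, had 925, 1017 and 1165 in CTTN 1 to 3 and 641, 758 and 800.3 in controls 1 to 3. In these 5 genes, picked after the values were seen, the isoform's groups did not overlap, but neither its level nor its share passed the test. Over all isoforms 8.94% were higher in CTTN without overlap. The isoforms of CILP2 and APLP1 had control means under 500 and reached the limit through the CTTN libraries, so the choice favoured their difference. The CILP2 call was lost without CTTN 1 (0.95) and without control 2 (0.94). Those of APLP1, PLEKHG6, GSN and PLOD1 were lost without CTTN 1, without each control and in FPKM (limma adjusted p = 0.133, 0.117, 0.123 and 0.0797), with differences in FPKM of 0.97, 0.51, 0.55 and 0.38. The GSN and PLOD1 calls were also lost without the trend, and that of PLOD1 with no filter on low values. The other named genes that were higher were CERS2 (ceramide synthase 2), GAA (lysosomal alpha-glucosidase), RASGEF1A and SLC12A9, with log2 differences of 0.40 to 0.53, and their isoforms overlapped between the groups. These 4 calls were lost without CTTN 1, without each control and in FPKM. The GAA and SLC12A9 calls were also lost without the trend (limma adjusted p = 0.0592 and 0.0682), and that of SLC12A9 with no filter on low values (limma adjusted p = 0.0657). MAT2A, which makes S-adenosylmethionine, and the chromatin protein gene DEK were lower, at −0.42 ± 0.09 and −0.39 ± 0.08 (limma adjusted p = 0.0499 and 0.039). Both calls were lost without CTTN 1, without each control, in FPKM, without the trend (limma adjusted p = 0.0763 and 0.0632) and with no filter on low values (limma adjusted p = 0.0959 and 0.078), with MAT2A at −0.44 to −0.41 and DEK at −0.47 to −0.37. The MAT2A isoform had 2826, 4121 and 798 in CTTN 1 to 3 and 5597, 4886 and 5302 in controls 1 to 3, and the DEK isoform overlapped, with 559, 692 and 211 in CTTN 1 to 3 and 615, 829 and 428 in controls 1 to 3.

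**Figure D5:**
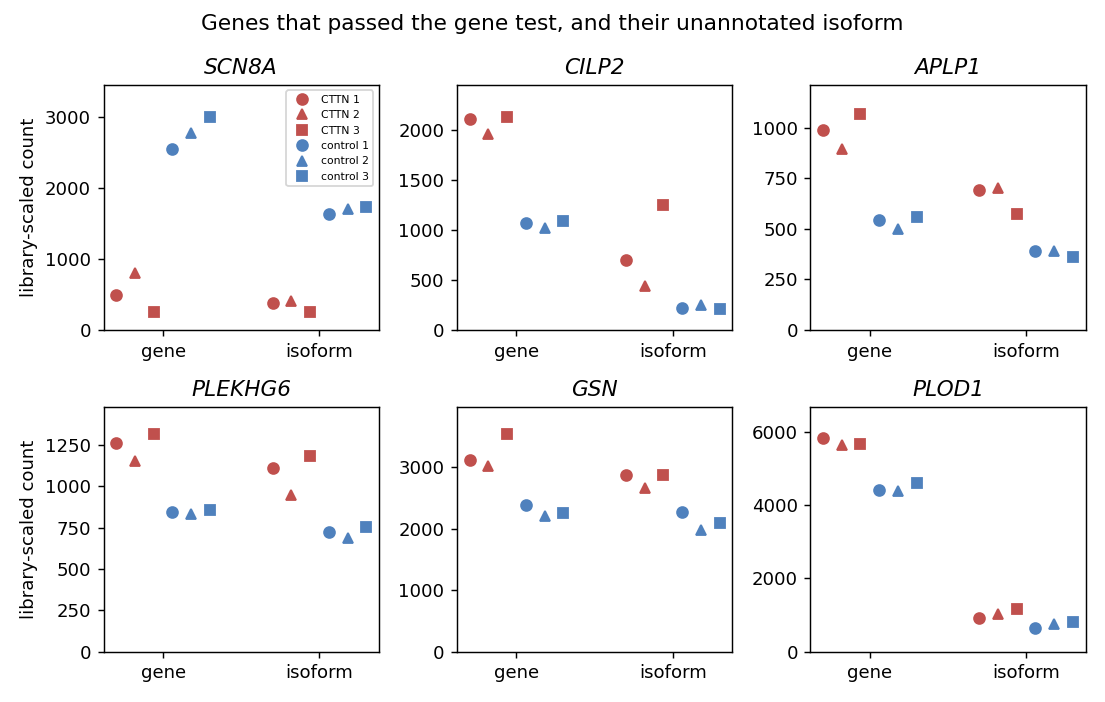
Library-scaled counts of 6 host genes called at the gene level and of their most abundant unannotated isoform; each point is a library, red for CTTN and blue for control, and the y axes start at 0. These 6 were picked because the 3 CTTN points of the isoform lie on the same side of the 3 control points as those of the gene, so the likeness is no result.

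Among genes of actin and myosin, which cortactin binds or works beside, 15 genes held 17 of the isoforms, and none was called in level (0% of all isoforms were). The median log2 difference was 0.21. All 17 were shorter than their nearest annotated transcript. MYH9, the heavy chain of non-muscle myosin IIA, had an isoform of 4525 nt with 5914, 123 and 9557 in CTTN 1 to 3 and 3189, 1259 and 685 in controls 1 to 3, and it was 62.4% of the gene in CTTN 3 but under 1% in CTTN 2. LCP1, the actin bundling protein L-plastin, had 1410.3, 553 and 2405 in CTTN 1 to 3 and 816, 496 and 472 in controls 1 to 3 in an isoform of 3109 nt and 885, 509 and 660.5 in CTTN 1 to 3 and 508, 754 and 681 in controls 1 to 3 in one of 3636 nt. SHROOM3, a regulator of apical constriction, carried 80.2% of its count on an isoform with 2297, 3133 and 849.9 in CTTN 1 to 3 and 3870.0, 3599 and 3592 in controls 1 to 3, below all controls in each CTTN library though not called (limma adjusted p = 0.548). MYO6, the minus-end directed myosin VI, had 1143, 1360.1 and 950.1 in CTTN 1 to 3 and 1401, 1426 and 1473 in controls 1 to 3. ACTN4, alpha-actinin 4, was listed at 3136 in CTTN 3 and under 1 in the other 5 libraries, so its place among the isoforms rests on 1 library. This group and the ones on lipid metabolism, HER2 and translation were drawn up after the isoforms were known.

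Lipid metabolism was represented by 12 genes with 13 isoforms, of which none was called and the median log2 difference was 0.10. CPT1A, the carnitine palmitoyltransferase of mitochondrial fatty acid import, had 4168, 2795 and 4542 in CTTN 1 to 3 and 2624, 2648 and 2533 in controls 1 to 3, with CTTN above control in each library and shares of 56.5%, 31.9% and 73.9% in CTTN 1 to 3 and 32.4%, 31% and 28.9% in controls 1 to 3 (limma adjusted p of the share 0.711). ACLY, the enzyme that supplies cytosolic acetyl-CoA, had 5792, under 1 and 10625 in CTTN 1 to 3 and 2104, 1136 and 103 in controls 1 to 3, and the acyl-CoA synthetase gene ACSL3 had 920.0, under 1 and 1959 in CTTN 1 to 3 and 336, 3.87 and under 1 in controls 1 to 3. Both were highest in CTTN 3 and under 1 in CTTN 2, and control 1 was the highest control for both. SREBF1, the transcription factor of lipid synthesis, was steady by contrast, with 1206, 1314 and 1117 in CTTN 1 to 3 and 1308, 1044 and 1231 in controls 1 to 3, as was LIPA, lysosomal acid lipase, with 874, 692 and 701 in CTTN 1 to 3 and 802, 845 and 769 in controls 1 to 3.

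The genes around ERBB2 on chromosome 17 and of other receptors, 10 genes with 14 isoforms, gave no call either. ERBB2 isoforms had small shares, with another of 2357 nt at 2617, 4535 and 932 in CTTN 1 to 3 and 3927, 3922 and 4989 in controls 1 to 3. GRB7, an adaptor protein that binds HER2, had an isoform with 2296, 2287 and 2041 in CTTN 1 to 3 and 2709, 1995 and 2445 in controls 1 to 3 that held 11% of its gene, and 2 more with 1467, 1257 and 2706 in CTTN 1 to 3 and 579, 1234 and 1059 in controls 1 to 3 and with 375, 39.2 and 2486 in CTTN 1 to 3 and under 1, 135 and 103 in controls 1 to 3. THRA, a thyroid hormone receptor, carried 63.8% of its count on an isoform of 4760 nt with 2122, 1771 and 1391 in CTTN 1 to 3 and 1303, 1661 and 1559.8 in controls 1 to 3. MET, the hepatocyte growth factor receptor, had 1085, 883 and 1233 in CTTN 1 to 3 and 1007, 864 and 995 in controls 1 to 3, a share of 60.8%. NOTCH3 had 1412, 1496 and 1226 in CTTN 1 to 3 and 1462, 1274 and 779 in controls 1 to 3 and EPHA2, an ephrin receptor, had 978, 465 and 1196 in CTTN 1 to 3 and 633, 562 and 553 in controls 1 to 3. Apart from 1 GRB7 isoform, the groups of all 14 overlapped. Over all isoforms 8.94% were higher and 9.99% lower in CTTN without overlap, so this is no result about these genes.

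Translation genes numbered 10 with 13 isoforms. The initiation factor subunit EIF3B had 9077, 7396 and 8732 in CTTN 1 to 3 and 6183, 8149 and 6941 in controls 1 to 3 at 27.4% of its gene. EIF4G1, the scaffold of the cap-binding complex, had 3 isoforms of which the most abundant had 5129, 991 and 5258 in CTTN 1 to 3 and 2353, 991 and 823 in controls 1 to 3, and each was at most 14.1% of the gene. RPS7 had 677, 672 and 610.0 in CTTN 1 to 3 and 556, 607 and 561 in controls 1 to 3, above the controls in each CTTN library with a log2 difference of 0.18 ± 0.14 (limma adjusted p = 0.588). KRT19, keratin 19, had 765, 655 and 876 in CTTN 1 to 3 and 567, 533 and 577 in controls 1 to 3 at under 1% of its gene, again above the controls without passing (limma adjusted p = 0.548).

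Of the 89 splicing factor genes listed, 24 carried 29 unannotated isoforms of their own, none of them called in level, with a median log2 difference of −0.06. Of the 29, 17 were longer than the nearest annotated transcript. SF3B4, another U2 snRNP subunit, had 4079, 3544 and 4552 in CTTN 1 to 3 and 3474, 2961 and 3186 in controls 1 to 3, all CTTN above all controls, at 70.4% of the gene (limma adjusted p = 0.548). DDX17, an RNA helicase that acts with the spliceosome, had an isoform of 7821 nt, against 4791 nt, with 3662, 7125 and 837 in CTTN 1 to 3 and 9569, 7852 and 8660.4 in controls 1 to 3. HNRNPA1, a repressor of exon inclusion, had 766, 711 and 312 in CTTN 1 to 3 and 1230.1, 936 and 1198 in controls 1 to 3 in an isoform of 3785 nt against 1842 nt. CTTN 3 was the lowest library for both, and each CTTN library was below each control, without passing the test (limma adjusted p = 0.548 and 0.548). HNRNPU, with its isoform of 14989 nt, had 131, 756 and 111 in CTTN 1 to 3 and 636, 744 and 1013 in controls 1 to 3. SRRM2, a large SR-related protein of the spliceosome, had 2643, 5985 and 529 in CTTN 1 to 3 and 4269, 4549.5 and 4890.0 in controls 1 to 3 in its more abundant isoform. MBNL1, a regulator of tissue-specific exons, had 946, 25.7 and 2109.9 in CTTN 1 to 3 and 195, 25.1 and 55.2 in controls 1 to 3, and it reached 78.4% of the gene in CTTN 3 against under 5% in each control. SRPK1, a kinase of SR proteins, had 2027, 1141 and 2819 in CTTN 1 to 3 and 1579, 1241 and 1219.6 in controls 1 to 3. SF1, the branch point binding protein, had an isoform of 3122 nt with 1232, 1062 and 1964 in CTTN 1 to 3 and 1354, 1292 and 1663 in controls 1 to 3, and one of 3131 nt with 1289, 1046 and 1135 in CTTN 1 to 3 and 1207, 1238 and 1071 in controls 1 to 3. HNRNPD, which binds AU-rich elements, had 1025, 1095 and 1144 in CTTN 1 to 3 and 957, 974 and 1207 in controls 1 to 3.

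As genes, 84 of the 89 splicing factors were measured and 2 passed the gene test, both lower in CTTN, a share of 2.38% against the 4.23% of all genes. NOVA1, a neuronal splicing regulator, had 35.2, 39.1 and 31.0 counts in CTTN 1 to 3 and 91.8, 96.0 and 108 in controls 1 to 3 (log2 difference −1.47 ± 0.16, limma adjusted p = 0.00808). CLK4, a kinase of SR proteins whose locus also holds another gene name, had 587, 586 and 606 against 868, 810 and 806 (−0.48 ± 0.08, limma adjusted p = 0.028). Neither had an isoform among those described. Both calls were lost when CTTN 1 or any control was left out, with NOVA1 at −1.52 to −1.40 and CLK4 at −0.50 to −0.45. Both were also lost in a fit of FPKM, where NOVA1 was at −0.67 and CLK4 at −0.64. Without CTTN 2, 37 of the list were called, or 44%, against 48% of all genes. The median log2 difference of the list was −0.06, against 0.01 over all 14331 genes. All 16 genes of nonsense-mediated decay were measured, none passed the test, and their median was −0.10. Of these, 3 carried an unannotated isoform. SMG1, the kinase that phosphorylates UPF1, had 2940.0, 2098 and 2484 in CTTN 1 to 3 and 2647, 2509 and 2174 in controls 1 to 3, with shares of 66.4%, 24.1% and 86.8% in CTTN 1 to 3 and 36%, 29.6% and 24.6% in controls 1 to 3, and UPF1, the helicase at the centre of the pathway, had 1701, 321 and 2972 in CTTN 1 to 3 and 606, 509.5 and 362 in controls 1 to 3. SMG5, which recruits decay enzymes, had 1037, 16.1 and 3015 in CTTN 1 to 3 and 69, under 1 and 38.9 in controls 1 to 3. In each of the 3 the share was highest in CTTN 3 and second highest in CTTN 1.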

How the data were processed

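RNA-seq was compared between SKBR3 cells with pLVX vector (control) and pLVX-CTTN, 3 libraries each. Per the labels and the methods, poly(A) RNA was sequenced from stranded libraries, trimmed, aligned with STAR and assembled and quantified with Cufflinks. The submitters' processing notes also name bcl2fastq 2.20.0 and Trimmomatic and the build GRCh38, in which loci are given (the methods name hg19). The deposited signal tables hold estimated fragment counts that the authors' pipeline divided by 1 factor per library, and the FPKM tables hold the same per length. All gene values, multiplied by these factors, were whole within 0.02 (100%). Isoform values were not whole, so limma 3.58.1 in R 4.3.3 (trend, two-sided, Benjamini-Hochberg over all features) was fitted to log2(count + 1) for features with a mean of at least 10, and edgeR 4.0.16 on recovered gene reads was an added alternative, which called 628 genes where limma called 606. Shares were fitted as log2((isoform + 1)/(other isoforms + 1)). Differences are CTTN minus control on the log2(count + 1) scale, which understates changes of low features. The scripts were tested on simulated data. Exact two-sided permutation tests compared percentages per library.

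The labels number the control columns 1 higher than the deposited sample table; the table was followed, and which control sample each column is remains unsettled. The isoforms and all lists were chosen with earlier results of these data known. The isoforms named were the 12 with the highest means outside chromosome 8 and outside loci with several gene names, the 3 on either side of the limit, splicing factors, and, since no isoform passed a test, others chosen after their values were seen. Counting error is not replicate error, and how the assembler split reads between isoforms cannot be checked from the tables.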

Additional observations from a re-analysis of the deposited data

How the results depend on the processing

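No isoform of the set passed in level or share under a pseudocount of 5, no filter on low values, limma without its trend, another limit (means of 250 or 1000), a replicate block, or, for level, median-of-ratios scaling, quantile normalisation or FPKM, or, for share, shares in percent. Leaving out 1 library gave 0 to 32 calls in level and 0 to 15 in share, the highest without CTTN 2. Over all isoforms these ranges were 0 to 1240 and 0 to 1304, for start site groups 0 to 440 (0 to 20 for those of the set), for genes 15 to 6883 (host genes 0 to 387, splicing factors 0 to 37), and for the CTTN log2 difference 1.08 to 1.56. It missed the threshold, at 1.25, 1.28, 1.30 and 1.31, without CTTN 1 and without controls 1 to 3. Without CTTN 1 and CTTN 3, an alternative chosen after seeing the data, there were 460 isoforms called in level (9 of the set) and 0 in share, 2055 genes, 113 host genes and 11 splicing factors. Without the trend 185 isoforms were called in level, 131 in share, 27 start site groups and 8 host genes. With no filter 263 were called in share, 395 genes, 82 start site groups and 1 of the set's groups. With a pseudocount of 5, 1 start site group was called. FPKM gave 178 genes, 5 host genes and 0 splicing factors. The cause of these shifts was not tested. The difference in the percent of unannotated isoforms, 0.527 points, became 0.211 in FPKM and 0.0988 to 0.862 with 1 library left out.

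The replicate numbers of the sample table did not pair the libraries: deviations of same-numbered libraries correlated at 0.019, 0.076 and −0.186. With them as a block 0 isoforms were called in share, 108 genes, 4 host genes and 0 splicing factors, and the CTTN difference of 1.30 missed the threshold (limma adjusted p = 0.0587). This block and edgeR were also added after the data were seen, since the labels number the control columns differently. Of 1989 values of named isoforms and genes under the alternatives, 1884 stayed on the same side of the threshold, 91 fell short of it and 14 passed it. The sign changed in 108 of the 1989, all levels of isoforms that passed the threshold neither with all libraries nor under that alternative, 49 of them without CTTN 1 and CTTN 3. The ASCC3 isoform, whose difference had opposite signs without CTTN 2 and with CTTN 2 alone, is not among these values.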
